A study of Rattus norvegicus with 17 samples.

Results

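mRNA levels in liver were compared with those in adipose tissue of the same 5 Brown-Norway (BN) rats. All arrays of this strain were taken, so that 10 of the 17 arrays of the series entered, 5 of liver and 5 of adipose tissue, paired by the rat. BN is an inbred strain with normal blood glucose that served as the control strain. The animals were males aged 7 months, no treatment was named, and neither the adipose depot nor the part of the liver sampled was given in the labels. Total RNA was hybridised to Illumina RatRef-12 BeadChips, on which each transcript is read by oligonucleotide probes on beads. The rats are called rat 1 to rat 5 after the replicate numbers of the labels.

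Hepatocytes make most plasma proteins, clear ammonia through the urea cycle, release glucose between meals, build bile acids from cholesterol and oxidise drugs and steroids. Adipocytes store fatty acids as triglyceride in a lipid droplet, release them by lipolysis, take up glucose through an insulin-responsive transporter and secrete hormones such as adiponectin and leptin. Both organs also hold vessels, macrophages, connective tissue and blood, so that a difference in bulk RNA can come from other cells as well as from hepatocytes and adipocytes, and fewer cells of a type cannot be told apart from less RNA per cell.

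The whole tissue contrast was wide. Of 22226 probes, 8681 (39.1%) differed between liver and adipose tissue in a paired fit with limma at an adjusted p under 0.05. Liver was higher for 4610 probes (20.7%) and adipose tissue for 4071 (18.3%). A difference beyond 4-fold in size was called for 1935 probes (8.71%) higher in liver and 1218 (5.48%) higher in adipose tissue. The values of the 5 liver and 5 adipose tissue arrays did not overlap for 7649 probes (34.4%). Of the called probes, 8359 changed in the same direction in 5 of 5 rats. Called probes were chosen by these same differences, so this agreement only describes them. Among the 5929 probes detected on all 10 arrays, tissue accounted for a median of 75.5% of the variance. No probe was called for a rat effect common to both tissues with limma (0 after adjustment). At an unadjusted p under 0.05 there were 1359 probes, 6.11% of all. With a trended and robust variance 39 probes were called after adjustment.

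Levels are log2 signals after a variance-stabilising normalization of the 10 arrays together, and each difference is liver minus adipose tissue of the same rat. A probe counts as detected where its signal exceeds over 0.99 of the negative control probes of its array. Where a gene was detected on no array of a tissue, its signal there is not well above background and the fold is written as a lower bound, from the mean of the brighter tissue and, on each array of the dimmer tissue, the higher of the lowest detected signal and the probe's own signal. For genes detected on only some arrays of the dimmer tissue the number of arrays is given. The top of the scale was narrow, since 68 probes had a liver mean above 15 and none a mean above 15.57, against 11 probes above 15 in adipose tissue. Levels in that band have no order, and differences that reach it may be too small.

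The arrays of a tissue resembled each other closely, with correlations over all probes of 0.962 to 0.973 in liver and 0.965 to 0.972 in adipose tissue, against 0.778 to 0.811 between the tissues. Between 8004 and 8530 probes were detected per liver array and 7328 to 8106 per adipose tissue array. Hybridisation controls were 3.05 to 4.47 times brighter on the liver arrays, and the negative controls 1.26 times. By the array identifiers each of the 10 arrays lay on a slide of its own and no slide held both tissues, so differences between slides cannot be told apart from those between arrays or tissues. The part of this brightness difference in the results was not tested. Rat 1 stood apart from the other 4 rats on a group of genes and rat 2 lacked the muscle signal of the other adipose samples, as given further on. Without rat 1, 7818 probes differed between the tissues, and without rat 2, 7507.

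**Figure D1:**
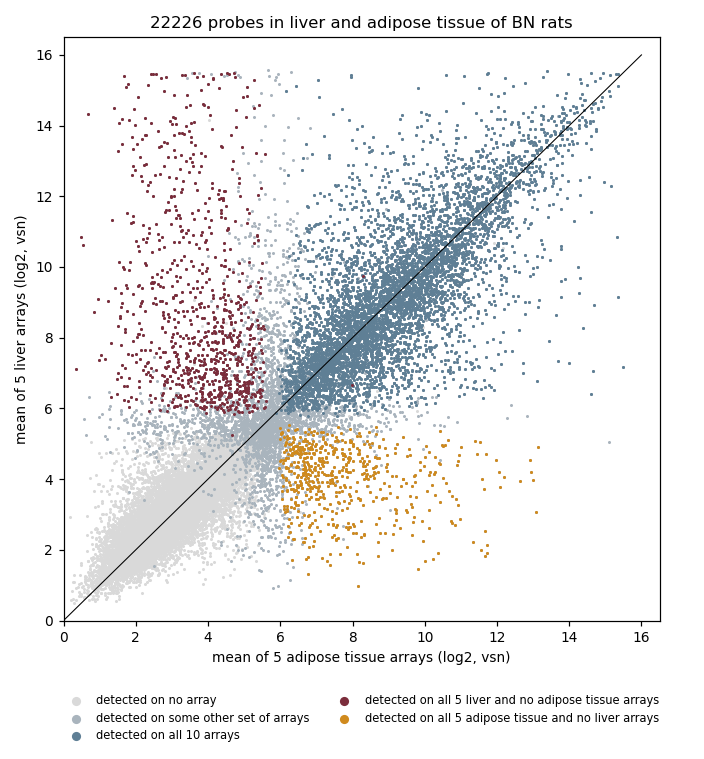
Mean log2 signal of each of the 22226 probes over the 5 adipose tissue arrays (x axis) and the 5 liver arrays (y axis), coloured by the arrays on which the probe was detected. The line marks equal levels, the 938 probes detected in liver alone lie along the upper left and reach the top of the scale near 15.5, and the 595 probes detected in adipose tissue alone lie at the lower right.

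The labels of the tissues were checked first against hepatocyte and adipocyte markers. All 10 measured hepatocyte markers were higher in liver and all 10 measured adipocyte markers higher in adipose tissue, against 20.9% and 22.4% of all 13278 named genes. Their median difference was 11.47 for hepatocyte and -5.17 for adipocyte markers, beside -0.04 over all genes. With the lower bounds in place of differences against undetected signals, and only detected members counted, the medians were 10.07 and -4.85. Fgb, the fibrinogen beta chain, had levels of 15.43, 15.31, 15.58, 15.35 and 15.53 in the livers of rats 1 to 5 and of 3.92, 2.85, 2.09, 4.07 and 3.51 in their adipose tissue. All 5 livers lay in the top band, and no adipose array detected the gene. The liver level was at least 1140-fold higher (adjusted p = 4.79e-07).

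Adipoq, which encodes the adipocyte hormone adiponectin, had levels of 12.81, 12.86, 12.88, 12.95 and 13.26 in adipose tissue and 4.21, 4.27, 4.35, 3.80 and 4.44 in liver. It was detected on no liver array and was at least 248-fold higher in adipose tissue (adjusted p = 2.32e-07). Not every marker was absent from the other tissue. Hpd, which breaks down tyrosine, was detected on all 5 adipose arrays at 7.95 ± 0.49 (SD, n = 5), far under its liver level of 15.36 ± 0.09. Cidec, a lipid droplet protein, was detected on all 5 liver arrays at 9.19 ± 0.26, and Cfd, the complement factor D known as adipsin, at 10.86 ± 0.25. Lep, the leptin gene, was detected on 4 of 5 adipose arrays, with a level of 4.11 in rat 1 against 6.33 to 7.55 in the others.

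**Figure D2:**
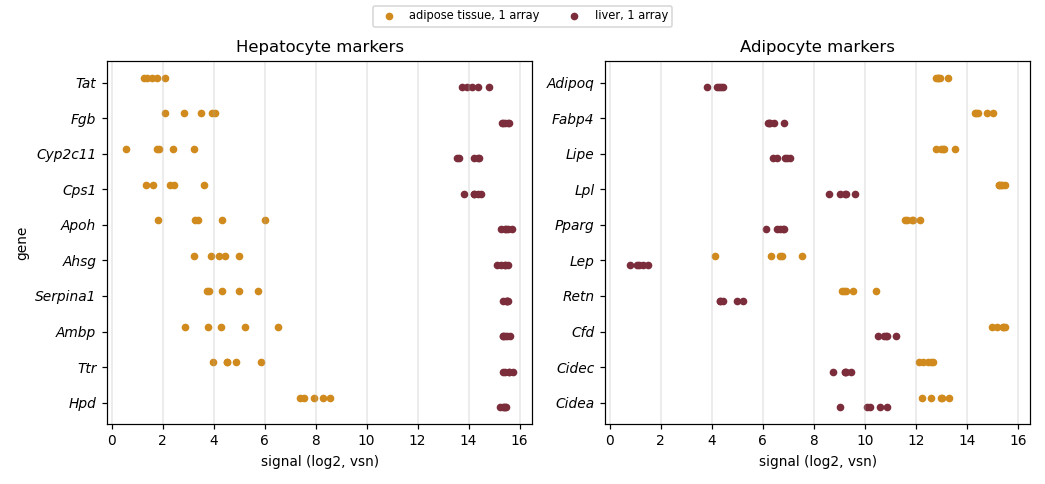
Log2 signal of 10 hepatocyte markers (left) and 10 adipocyte markers (right) on each array, with 5 points per tissue and gene. The tissues do not overlap for any of the 20 genes, the liver points of Fgb, Ttr and other markers crowd near 15.4, and the adipose value of Lep in rat 1 lies at 4.11.

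Next, the 10 genes with the largest normalized differences in each direction were taken. Their order is not read, since the dimmer tissue of nearly all of them lay below detection. Among those of liver was Spink1l, a gene of the Kazal-type protease inhibitors, with levels of 15.23, 15.30, 15.09, 14.92 and 15.36 in liver and 3.20, 0.98, 1.38, 0.68 and 2.62 in adipose tissue. It was detected on no adipose array and was at least 950-fold higher in liver (adjusted p = 4.79e-07). The other 9 were the cytochromes P450 Cyp3a18, Cyp2c7 and Cyp3a2, the glucuronosyltransferase Ugt2b, the protease inhibitors Pzp and Itih4, the tyrosine aminotransferase Tat and the apolipoproteins Apoa5 and Apoa2. None of the 10 was detected in adipose tissue, and their lower bounds ran from 445-fold for Apoa5 to 1170-fold for Pzp. The Cyp2c, Cyp3a and Ugt2b families hold near-identical genes, and how far their probes read related transcripts was not tested.

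Sncg, encoding gamma-synuclein, was among the 10 genes of adipose tissue, with levels of 14.78, 15.03, 15.10, 15.16 and 15.39 there and 4.94, 5.07, 5.12, 5.74 and 4.31 in liver. It was detected on 1 liver array, and the difference was -10.05 ± 0.26 (SE, adjusted p = 3.97e-07). S100b, a calcium-binding protein, was at least 271-fold higher in adipose tissue, Cbr3, a carbonyl reductase, at least 256-fold, and Gpihbp1, which holds lipoprotein lipase on capillary walls, at least 95.2-fold. Cyp11a1, the enzyme that opens steroid synthesis by cutting the cholesterol side chain, had adipose levels of 11.53, 11.89, 11.78, 11.34 and 12.04 and was detected on no liver array (at least 105-fold higher, adjusted p = 6.59e-07). Cyp17a1, a later enzyme of the same route, lay on the other side, at 13.76 ± 0.15 in liver and not detected in adipose tissue (at least 355-fold higher in liver, adjusted p = 2.6e-07). Star, which carries cholesterol into mitochondria for steroid synthesis, was with Cyp11a1 on the adipose side, at least 12.7-fold higher (adjusted p = 0.000296). The remaining genes of these 10 were Abcd2, Postn, Adipoq, Sucnr1 and Car4, none of them detected in liver.

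In several gene families a member had higher mRNA levels in liver and a related member had higher levels in adipose tissue. Of 26 pairs of related genes, 17 had both members measured, and in all 17 the member listed first lay further to the liver side than its partner in 5 of 5 rats. In 9 pairs the members were called in opposite directions and each was detected on all 5 arrays of its higher tissue. These pairs were listed because the members are known for different tissues, so their direction is a description of these samples. With 5 pairs an exact sign-flip test cannot give a two-sided p under 0.0625.

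The cytosolic fatty acid binding proteins carry fatty acids through the cell. Fabp1 had levels of 15.36, 15.30, 15.60, 15.49 and 15.60 in liver and 4.34, 4.73, 4.19, 4.92 and 4.78 in adipose tissue, where it was not detected. Fabp4 had levels of 14.34, 14.36, 14.43, 14.80 and 15.02 in adipose tissue and 6.83, 6.21, 6.24, 6.46 and 6.27 in liver. Each gene was thus high on all arrays of its own tissue, and no value overlapped. Fabp1 was at least 1160-fold higher in liver (adjusted p = 2.13e-07), and Fabp4 was 291-fold higher in adipose tissue (difference -8.19 ± 0.22, adjusted p = 4.34e-07).

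Lipases that act on circulating lipoproteins showed the same crossing. Hepatic lipase, Lipc, had liver levels of 12.36, 13.02, 13.21, 12.99 and 13.23 and was not detected in adipose tissue (at least 205-fold, adjusted p = 3.43e-07). Lipoprotein lipase, Lpl, had levels of 15.40, 15.26, 15.36, 15.51 and 15.25 in adipose tissue and 9.02, 9.27, 9.61, 9.24 and 8.59 in liver, and was 74.2-fold higher in adipose tissue (adjusted p = 7.86e-07). The liver level of Lipc was lowest in rat 1. For glucose entry, Slc2a2, the transporter GLUT2 that lets glucose out of hepatocytes, had levels from 12.71 to 12.99 in liver and was not detected in adipose tissue (at least 191-fold). Slc2a4, the insulin-responsive GLUT4, had adipose levels of 7.82, 8.66, 8.42, 8.03 and 8.72 and was not detected in liver (at least 10.1-fold higher in adipose tissue, adjusted p = 4.86e-06).

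Glycerol channels differed less evenly. Aqp7, through which adipocytes release glycerol, was at 12.08 ± 0.34 in adipose tissue and not detected in liver (at least 135-fold), while Aqp9, through which hepatocytes take it up, was detected in both tissues and was 12.4-fold higher in liver (difference 3.64 ± 0.16). For the entry of fatty acids into mitochondria, Cpt1a was 16.9-fold higher in liver (4.08 ± 0.21, adjusted p = 7.92e-06). Cpt1b, the muscle form, was detected in adipose tissue alone (at least 3.45-fold higher). The part of muscle in the Cpt1b value was not tested. Slc27a5, which activates bile acids and fatty acids, was at least 767-fold higher in liver, and its relative Slc27a1 was 12.3-fold higher in adipose tissue. The lipid droplet proteins Cideb and Cidec were at least 114-fold higher in liver and 9.51-fold higher in adipose tissue. Smaller differences were those of phosphofructokinase (Pfkl 1.27 ± 0.17, Pfkp -2.69 ± 0.17) and glycogen phosphorylase (Pygl 2.21 ± 0.22, Pygm -2.44 ± 0.44). Pygm, the muscle form, was detected on 1 liver array and had adipose levels of 8.51, 6.27, 7.65, 8.72 and 7.49. It was lowest in rat 2, whose adipose sample also had the lowest skeletal muscle signal (given further on), and the part of muscle in this pair was not tested.

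In the other 8 measured pairs a member missed the test or was not detected on all arrays of its tissue. The methionine adenosyltransferases Mat1a and Mat2a were called in opposite directions (Mat1a at least 227-fold higher in liver, Mat2a -1.16 ± 0.23), with Mat2a detected on 4 of 5 adipose and 1 liver array. Pkm, Ppara, Fbp2, Arg2, Bcat1 and Elovl3 were detected on no array, so no fold is given for them and the pairs that hold them rest on the partner alone.

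**Figure D3:**
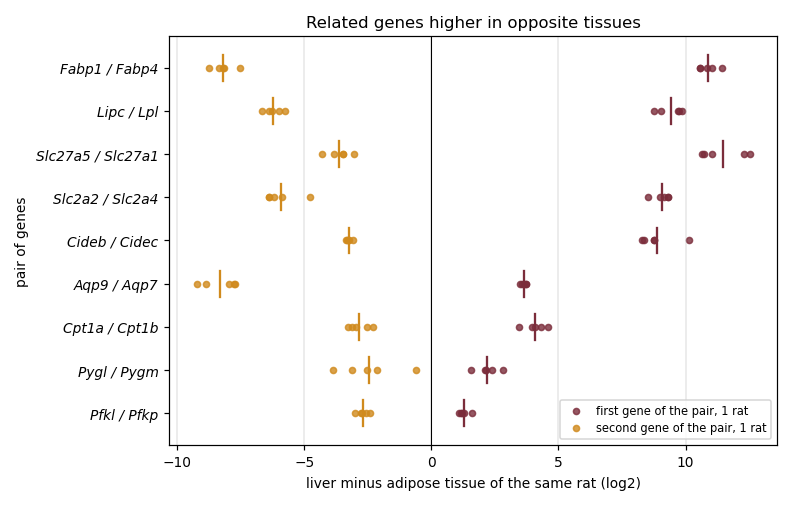
Liver minus adipose tissue difference (log2) in each rat for the 9 pairs of related genes that were higher in opposite tissues, with the first gene of a pair in dark red and the second in orange. Each point is 1 rat and each bar the mean of 5 rats, and the clusters of a pair lie on opposite sides of 0, for example Pfkl (1.27) and Pfkp (-2.69). Points of a gene not detected in a tissue (Fabp1 in adipose tissue, for example) are normalized values against background, so that the order of the pairs is not read.

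Genes of plasma proteins known from hepatocytes were mostly higher in liver. Of 48 plasma protein, complement and coagulation genes, 42 were higher in liver and 3 in adipose tissue, with a median difference of 8.13. C9, a pore protein of complement, and F2, prothrombin, were at least 586-fold and 1170-fold higher in liver. The 3 that went the other way were Cfd, 22.0-fold higher in adipose tissue, and C1qb and C1qc, complement genes known from macrophages (C1qb -1.07 ± 0.16, adjusted p = 0.00162). Tf, transferrin, was well expressed in both, at 15.38 ± 0.12 in liver and 13.28 ± 0.36 in adipose tissue.

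Nitrogen handling was as one-sided. Of 38 genes of the urea cycle and amino acid breakdown, 33 were higher in liver and 1 in adipose tissue (median 6.71, or 6.18 with bounds). Cps1, the entry enzyme of the urea cycle, and Otc, the next, were at least 487-fold and 295-fold higher in liver and were detected on no adipose array. Ass1 and Arg1, later steps, were detected on all 5 adipose arrays and were 304-fold and 117-fold higher in liver. The exception was Bcat2, the mitochondrial enzyme that starts the breakdown of branched-chain amino acids, with levels of 11.18, 11.29, 11.37, 11.18 and 11.65 in adipose tissue and 6.49, 6.85, 6.69, 6.43 and 6.38 in liver. It was 27.2-fold higher in adipose tissue (-4.77 ± 0.19, adjusted p = 2.12e-06). The next step of that route, the dehydrogenase subunits Bckdha and Bckdhb, had differences of -0.06 and 0.15 that were not called.

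Bile acid genes were called for liver in 16 of 19 cases and for adipose tissue in none, with a median of 7.02, or 6.29 with bounds. The 3 not called were Abcg8, Slc51a and Slc51b, which were detected on no array. Cyp8b1 and Baat were at least 701-fold and 243-fold higher in liver. Cyp7a1, the rate-limiting enzyme of bile acid synthesis, had liver levels of 12.32, 11.04, 10.29, 11.25 and 12.07, the widest spread among these examples, and was at least 68.9-fold higher. Of 43 cytochrome P450 and conjugation genes, 35 were higher in liver and 5 in adipose tissue. The 5 were Nat2 (11.5-fold) and Ugt1a6 (5.7-fold), both detected on 4 of 5 liver arrays, Gstp1 (8.93-fold, with probes that disagreed), Ces1d and Gstt1. Cyp2e1, the P450 that oxidises ethanol, was bright in both tissues, at 15.47 ± 0.10 in liver and 13.96 ± 0.63 in adipose tissue.

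Genes of apolipoproteins and lipoprotein handling fell on both sides. The 11 of 19 higher in liver were secreted apolipoproteins and assembly factors such as Apoc2 and Mttp together with Lcat and Lipc, and the 5 higher in adipose tissue were Gpihbp1, Lpl, Abcg1, Pltp and Angptl4. Apoe was high in both, at 15.48 ± 0.09 and 11.75 ± 0.66 (13.2-fold higher in liver). Apob, the backbone of very-low-density lipoprotein, was detected on no array, so that its probe gives no level in either tissue.

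Fat storage and fat burning fell on different sides. Of 28 genes of triglyceride storage and lipolysis, 18 were higher in adipose tissue and 3 in liver (median -1.25). The lipases Lipe, Pnpla2 and Mgll, which cut triglyceride in turn, were 80.1-fold, 24.8-fold and 19.3-fold higher in adipose tissue, and the fatty acid receptor Cd36 9.1-fold. The 3 on the liver side were Cideb, Aqp9 and Acsl1. Plin2, the lipid droplet coat of many cells, was at 12.58 ± 0.12 in adipose tissue and 12.65 ± 0.19 in liver, a difference that was not called. Of 23 mitochondrial fatty acid oxidation and ketone body genes, 19 were higher in liver and 1, Cpt1b, in adipose tissue (median 1.62). These differences were moderate, such as Acadm at 3.05 ± 0.23, apart from Bdh1, which makes the ketone body hydroxybutyrate, at least 75.3-fold higher in liver. Peroxisomal and omega oxidation genes were higher in liver in 15 of 19 cases, with Abcd2 the only one higher in adipose tissue.

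Fatty acid synthesis genes did not follow a single direction, with 4 of 14 higher in liver and 6 in adipose tissue. The desaturase Scd had adipose levels of 13.73, 10.46, 12.55, 10.93 and 14.24 and liver levels of 7.71, 5.76, 6.0, 5.44 and 5.53, detected on 3 of 5 liver arrays. Its adipose levels spread over more than 3 log2 units between rats and still lay above all livers (-6.29 ± 0.53, adjusted p = 8.71e-05). Elovl2 and Fads2, which make long polyunsaturated fatty acids, were not detected in adipose tissue and were at least 17.7-fold and 19.5-fold higher in liver. Thrsp and Srebf1, a lipogenic protein and a regulator of lipogenesis, were 5.93-fold and 2.88-fold higher in adipose tissue.

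Sugar metabolism divided into 14 of 33 genes higher in liver and 15 higher in adipose tissue, with a median of 0.11. Fbp1, a late step of glucose production, was at least 741-fold higher in liver, and G6pc1, the last step, was detected on 4 of 5 adipose arrays and was 180-fold higher in liver. Pck1, their entry enzyme, had liver levels of 15.31, 15.17, 15.38, 15.25 and 15.53 and adipose levels of 14.54, 13.69, 14.19, 14.31 and 14.72. Its liver levels lay in the top band, above all adipose values, and the difference was 1.04 ± 0.18 (adjusted p = 0.00354). On the other side, Ldhb, a lactate dehydrogenase subunit, was 53.2-fold higher in adipose tissue, and the glycolytic genes Pfkm, Pfkfb3, Aldoc and Eno2 were detected in adipose tissue and not in liver. Gapdh, often taken as a reference gene, was 5.47-fold higher in liver (2.45 ± 0.23, adjusted p = 0.000137).

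**Figure D4:**
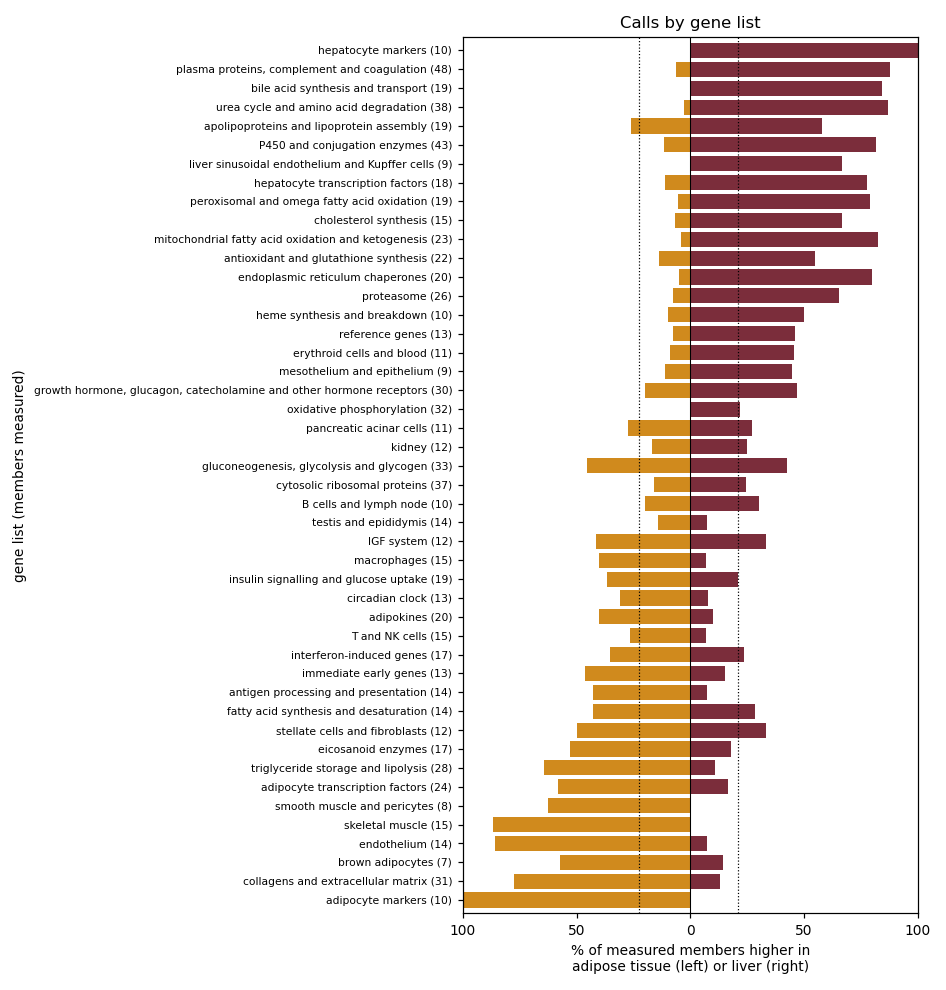
Share of the measured members of each of 46 gene lists called higher in adipose tissue (orange, to the left) or in liver (dark red, to the right), in percent, ordered by median difference, with the number measured in brackets. The dotted lines mark the shares over all named genes, 22.4% and 20.9%, and the bars run from all 10 hepatocyte markers in liver at the top to all 10 adipocyte markers in adipose tissue at the bottom.

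Among regulators, 14 of 18 transcription factors known from hepatocytes were higher in liver and 2 in adipose tissue, and 14 of 24 known from adipocytes were higher in adipose tissue and 4 in liver. Nr1i3, Onecut1 and Foxa2 were at least 66.4-fold, 25.4-fold and 23.8-fold higher in liver. Pparg, the nuclear receptor that drives adipocyte formation, had adipose levels of 11.89, 11.56, 11.86, 11.67 and 12.15 and liver levels of 6.12, 6.85, 6.55, 6.80 and 6.68 (37.4-fold, adjusted p = 2.61e-06). Ebf1, Klf5 and the positional factor Hoxa7 were not detected in liver. Cebpa stands on both lists and was 2.21-fold higher in adipose tissue, a call (adjusted p = 0.0439) that was lost when any of rats 1 to 4 was left out. Against their list, Klf15, Tcf21, Meox2 and Cebpb were higher in liver.

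Hormone receptors and hormone-like factors were mixed, 14 of 30 receptors being higher in liver and 6 in adipose tissue. The glucagon receptor Gcgr was at 11.93 ± 0.09 in liver and detected on 1 adipose array (91.2-fold), and the beta-3 adrenergic receptor Adrb3, which triggers lipolysis in rodents, had adipose levels from 11.38 to 12.06 and was not detected in liver (at least 98.4-fold, adjusted p = 1.47e-06). In the insulin-like growth factor system Igfals, Igfbp1 and Igfbp2 were not detected in adipose tissue. Igfbp6, detected on 3 of 5 liver arrays, was 133-fold and Igf2 16.4-fold higher in adipose tissue. Igfbp1, whose gene insulin represses in hepatocytes, spread over rats in liver, at 14.23, 11.82, 11.89, 12.53 and 13.41. Irs1 was at least 3.05-fold higher in liver, and Irs3, an insulin receptor substrate of rodents, 11.5-fold higher in adipose tissue. Of 20 adipokine genes 8 were higher in adipose tissue and 2, Rbp4 and Rarres2, in liver.

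Most collagen, matrix and endothelial genes were higher in adipose tissue. Of 31 collagen and matrix genes, 24 were higher in adipose tissue and 4 in liver (median -3.04), with Postn, Col15a1 and Thbs2 not detected in liver. Fn1, fibronectin, which hepatocytes secrete into plasma, was 5.9-fold higher in liver, and Col18a1 7.64-fold. Of 14 endothelial genes, 12 were higher in adipose tissue, among them Cldn5 (32.1-fold) and Vwf (difference -3.46 ± 0.22), and the 1 called for liver, Flt1, was detected on no array. Markers of liver sinusoids and Kupffer cells, the macrophages of the liver, were higher in liver in 6 of 9 cases, with Vsig4, Oit3, Gata4 and Marco not detected in adipose tissue. Of 15 macrophage genes, 6 were higher in adipose tissue and 1, Adgre1, in liver. Trem2, known from lipid-laden macrophages, was at 10.99 ± 0.18 in adipose tissue and not detected in liver (at least 57.2-fold, adjusted p = 1.01e-06). Stellate cell and fibroblast genes were divided, with 6 of 12 higher in adipose tissue, such as Gsn, gelsolin (316-fold), and Dpt, and 4 in liver, Reln (6.08-fold), Dpp4, Ecm1 and Hand2, the last detected on no array. Markers of T and NK cells gave 4 calls for adipose tissue among 15, near the share over all genes of 22.4%, and 2 of the 4 were detected on all 5 adipose arrays. The 1 call for liver, Gzmb, was detected on no array.

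Oxidative phosphorylation, ribosomal protein, chaperone and proteasome genes had median differences of 1.03 or less. The direction of some of these lists turned with the normalization. Of 32 oxidative phosphorylation genes, 7 were higher in liver, near the share over all genes of 20.9%, and 0 in adipose tissue, with a median of 0.29. With normexp and quantile normalization 2 were higher in liver and 22 in adipose tissue, with the vsn values quantile normalized 1 and 17, and with the deposited values 26 and 0, so that no direction can be given for these genes. Leaving out any of rats 1 to 4 gave 2 or 3 calls for liver. The 37 cytosolic ribosomal protein genes, with 9 higher in liver and 6 in adipose tissue, likewise turned to 6 and 24 with normexp and to 7 and 23 with quantile normalization of the vsn values. Endoplasmic reticulum chaperones, which fold secreted proteins, were higher in liver in 16 of 20 cases (median 1.03) and proteasome subunits in 17 of 26 (median 0.72), with 1 and 2 higher in adipose tissue. With normexp these became 10 in liver and 4 in adipose tissue for chaperones, and 10 and 9 for the proteasome. Ddit3, a stress-induced factor, was the chaperone-list gene higher in adipose tissue (5.51-fold). Of 22 antioxidant and glutathione synthesis genes, 12 were higher in liver and 3 in adipose tissue (median 1.15, or 0.372 with normexp). Among them the plasma glutathione peroxidase Gpx3 was 68.7-fold higher in adipose tissue and the cytosolic Gpx1 12.0-fold higher in liver. The least different bright gene was RT1-A1, of the major histocompatibility complex, at 13.74 ± 0.18 in adipose tissue and 13.74 ± 0.12 in liver. Fth1, the ferritin heavy chain, was at 15.36 ± 0.16 and 15.47 ± 0.08, both within the top band.

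Genes detected in 1 tissue alone were examined for letters in their promoters, taken as 250 bases before to 50 after the start site in the RefSeq table of build GRCr8. The chosen genes were 545 named genes detected on all liver arrays and no adipose array, of which 434 had a promoter in the table, and 450 of the opposite kind, of which 335 had one. The letters GTTAATNAT, a site of hepatocyte nuclear factor 1, were searched on both strands. They occurred in 11 of 434 liver-only promoters (2.53%), 1 of 335 adipose-only promoters (0.3%), 11 of 4007 promoters of genes detected on all 10 arrays (0.27%) and 0.75% of all 27457 promoters of the table. A match is only a run of letters, and no test was made.

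The shorter run GTTAAT, which lies within that site and so counts every match of it again, occurred in 10.83% of liver-only, 3.58% of adipose-only and 7.37% of all promoters. For TTGCNNAA, read by C/EBP factors, the shares were 13.36%, 10.15% and 10.48%, for TGTTTAC, read by FOXA factors, 5.53%, 2.99% and 3.76%, and for TATAAA 12.44%, 9.55% and 14.26%. GTTAAT is the only motif searched that is contained in another. The promoters differed in composition too, with a median G+C content of 55.2% for liver-only and 60.7% for adipose-only genes and 52.3% over the table. Genes detected on no array had shares of 0.86% for GTTAATNAT and 8.5% for GTTAAT, above those of adipose-only genes.

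The 11 liver-only genes with the longer match were Hgfac, Habp2, Slco1b2, Lipc, Tm4sf4, F13b, Igfbp1, Serpina4, Golt1a, Snrpc and Rassf6. Shown for their places in the results are Slco1b2, the bile acid and drug uptake carrier that was at least 221-fold higher in liver, the lipase Lipc, and the growth factor binding protein Igfbp1. Their promoters lie at chr4:176282334-176282633 (plus strand), chr8:80516236-80516535 (minus strand) and chr14:86261027-86261326 (plus strand). Capitals mark the match, which starts 63 bases before the start site in Slco1b2, 15 in Lipc and 72 in Igfbp1, where it is read on the opposite strand, and in Slco1b2 also TATAAA, 231 bases before the start site.
Slco1b2: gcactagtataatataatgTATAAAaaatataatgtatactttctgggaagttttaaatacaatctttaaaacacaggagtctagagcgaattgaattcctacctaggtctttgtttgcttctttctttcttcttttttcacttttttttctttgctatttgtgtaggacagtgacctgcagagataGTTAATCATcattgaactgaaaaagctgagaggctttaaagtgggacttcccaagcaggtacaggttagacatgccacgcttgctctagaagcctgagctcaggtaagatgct
Lipc: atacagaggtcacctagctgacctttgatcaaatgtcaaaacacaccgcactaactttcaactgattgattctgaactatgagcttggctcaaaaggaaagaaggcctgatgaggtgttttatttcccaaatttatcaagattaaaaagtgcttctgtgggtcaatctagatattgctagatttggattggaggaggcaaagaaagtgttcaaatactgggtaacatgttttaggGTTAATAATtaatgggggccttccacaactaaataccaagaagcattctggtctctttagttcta
Igfbp1: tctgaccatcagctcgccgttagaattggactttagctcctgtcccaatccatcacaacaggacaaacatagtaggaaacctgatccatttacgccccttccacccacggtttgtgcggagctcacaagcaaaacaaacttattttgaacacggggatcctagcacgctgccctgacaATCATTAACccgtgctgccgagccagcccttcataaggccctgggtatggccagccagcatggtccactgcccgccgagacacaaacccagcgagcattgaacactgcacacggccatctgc

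For comparison, Fgb and Fabp1, at the top of the scale in liver, hold the shorter match, and Adipoq, detected in adipose tissue alone, holds none of the motifs searched. These promoters lie at chr2:170700826-170701125 (minus strand), chr4:104749090-104749389 (plus strand) and chr11:91240120-91240419 (minus strand). In Fgb the capitals mark TGTTTAC on the opposite strand, 166 bases before the start site, TTGCNNAA at 141 and GTTAAT on the opposite strand at 90. In Fabp1 they mark TTGCNNAA at 184 bases, GTTAAT at 117 and TATAAA at 40 bases before the start site. No match says only that these letters are not in the window. These genes are single examples and do not stand for their sets. Of liver-only promoters 10.83% held GTTAAT, and of adipose-only promoters 10.15% held TTGCNNAA.
Fgb: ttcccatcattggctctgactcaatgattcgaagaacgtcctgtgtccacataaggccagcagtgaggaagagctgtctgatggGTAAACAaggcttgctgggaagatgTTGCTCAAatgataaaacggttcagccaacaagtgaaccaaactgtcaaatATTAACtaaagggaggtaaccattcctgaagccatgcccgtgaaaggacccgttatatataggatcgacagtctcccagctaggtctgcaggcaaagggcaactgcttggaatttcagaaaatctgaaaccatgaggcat
Fabp1: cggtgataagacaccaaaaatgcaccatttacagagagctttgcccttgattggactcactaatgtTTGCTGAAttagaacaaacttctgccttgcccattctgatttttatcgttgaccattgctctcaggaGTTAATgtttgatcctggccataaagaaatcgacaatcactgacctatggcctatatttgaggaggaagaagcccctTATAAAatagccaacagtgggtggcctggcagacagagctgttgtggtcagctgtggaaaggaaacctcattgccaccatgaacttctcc
Adipoq: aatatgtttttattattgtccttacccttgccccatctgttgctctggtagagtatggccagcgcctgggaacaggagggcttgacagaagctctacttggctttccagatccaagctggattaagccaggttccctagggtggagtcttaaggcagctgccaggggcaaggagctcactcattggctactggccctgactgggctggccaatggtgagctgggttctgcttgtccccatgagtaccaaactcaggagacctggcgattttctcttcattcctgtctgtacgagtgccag

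The 5 rats were not alike on every gene. Probes were counted, after the data were seen, that lay over 1 log2 unit above the other 4 rats and were detected, in both tissues of the same rat. Rat 1 had 24 such probes, 17 of them with a gene symbol, and rats 2 to 5 had 0. Within a tissue, 84 probes were highest in rat 1 by this gap in adipose tissue and 84 in liver, and 36 and 35 in rat 5, among them in liver the immediate early genes Fos, Jun, Dusp1 and Zfp36, against at most 6 in each of rats 2 to 4. The widest gap among them was that of Alox15, an arachidonate lipoxygenase also known from red cell precursors, with levels of 13.16, 5.15, 4.90, 5.53 and 5.30 in adipose tissue and 13.59, 5.34, 6.69, 5.47 and 7.51 in liver. Ahsp, the chaperone of alpha-globin, had levels of 10.63, 5.42, 5.05, 5.66 and 5.60 in adipose tissue and 11.12, 5.66, 6.71, 5.63 and 6.58 in liver. In both genes rat 1 lay far above the other rats, in liver and in fat, and the difference between the tissues was not called for either (0.91 ± 0.38 for Alox15).

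Others of the 17 were Rhd, Add2, Alas2, Hba-a3, Hbb-b1, Hemgn and Bpgm, most of them known from the red cell lineage. The remaining 8, which were not sorted by cell type and may include red cell genes, were Cd52, S100a8, Lbp, Emb, Lgals5, Slc38a5, Tacr1 and Tent5c. Among these S100a8, known from neutrophils, was at 7.37 in adipose tissue and 9.61 in liver of rat 1, and Lbp, an acute phase protein, at 7.44 and 12.88. The whole list of 11 erythroid and blood genes had a mean level of 7.31 in adipose tissue and 8.06 in liver of rat 1, against 6.15 to 6.26 and 6.49 to 7.07 in the other rats, and 5 of its genes were detected on no array. The rat effect was not called for any of them (Alox15 adjusted p = 0.0992, Ahsp 0.112). The part of blood in these values was not tested.

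Rat 1 also stood apart on other genes of liver. Hamp, hepcidin, the liver hormone that lowers iron uptake, had levels of 7.58, 15.37, 15.29, 14.89 and 15.50 in liver. Lcn2, lipocalin-2, an iron-binding acute phase protein, had levels of 13.89, 8.93, 8.65, 9.15 and 8.56 in liver and was also highest in rat 1 in adipose tissue, at 10.5 against 9.07 to 9.54. Lox, lysyl oxidase, had liver levels of 7.21, 11.37, 11.37, 10.98 and 11.57. The liver of rat 1 was thus far lower for Hamp and Lox and far higher for Lcn2 than the other 4, whose values lay close together. In its adipose tissue 25 of 48 plasma protein genes were detected, against 14 to 17 in the other rats, and 4 of 10 hepatocyte markers against 1. Hp, haptoglobin, was at 6.77 there against 3.05 to 3.63. Gc was at 6.3 against 4.01 to 5.0, and Ttr at 5.87 against 3.97 to 4.86. The cause was not tested.

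**Figure D5:**
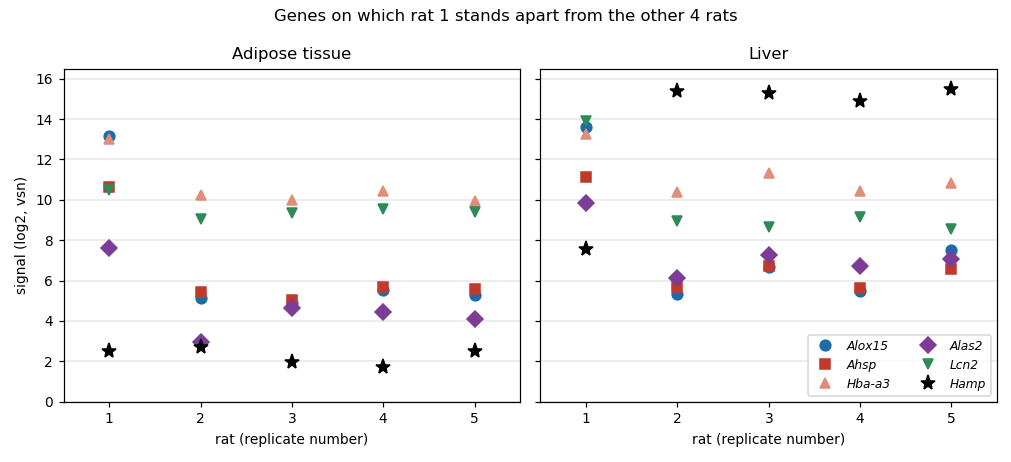
Log2 signal of 6 genes in adipose tissue (left) and liver (right) of each rat, 1 point per array. In rat 1 Alox15 (13.16 and 13.59), Ahsp, Alas2 and Hba-a3 lie above the other rats in both tissues, while Lcn2 is raised most in liver and Hamp is low in liver alone (7.58).

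The adipose samples differed in their content of muscle and brown fat genes. Of 15 skeletal muscle genes, 13 were higher in adipose tissue, and 10 to 13 were detected on the adipose arrays of rats 1, 3, 4 and 5 but 3 on that of rat 2, as many as on each liver array. Ckm, the creatine kinase of muscle, had adipose levels of 10.87, 3.87, 9.81, 11.30 and 9.38. The mean level of the list was 4.4 in rat 2, 6.53 to 7.93 in the other adipose samples and 3.89 to 4.17 in liver. Without rat 2, 12 of the 15 were called higher in adipose tissue, without rat 1 or rat 5, 9, and without rat 3 or rat 4, 7. Of 7 measured brown fat genes, 4 were higher in adipose tissue, 1 was higher in liver and 2 were not called. Of the 4, 2 were detected on all 5 adipose arrays. The adipose arrays of rats 1 to 5 detected 4, 2, 5, 5 and 4 of the 7 genes, and each liver array 1 or 2. Ucp1, the heat-producing protein of brown fat, had adipose levels of 4.94, 2.66, 9.97, 8.38 and 11.90 and was detected in rats 3, 4 and 5. Cox8b, a cytochrome oxidase subunit of brown fat and muscle, was detected in rats 1, 3, 4 and 5. Ucp1 was called (adjusted p = 0.0404), and the call was lost without any of rats 1, 3, 4 and 5. No liver array detected Ucp1, Cox8b or Ckm. The part of muscle and brown fat in other genes higher in adipose tissue, such as Cpt1b and Pfkm, was not tested.

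Markers of other organs were at most few. Of 12 kidney genes, 9 were detected on no array and 3, Slc22a8, Miox and Slc22a6, on liver arrays alone. Of 14 testis and epididymis genes, Cyp17a1 and Star were the only ones detected. Of 11 acinar pancreas genes, Cela1 and Cpb1 were detected on all 5 liver arrays, Cela1 also on 1 adipose array, and Cpa1 on all 5 adipose arrays and no liver array. What part these cells or transcripts have in the tissue contrast was not tested.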

How the data were processed

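Total RNA of liver and adipose tissue was amplified, labelled with biotin and hybridised to RatRef-12 arrays. The authors deposited, per array, a bead-averaged intensity for each of 22226 probes, a detection score and the number of beads, and a table of control probes. They also deposited log2 values, normalized by vsn in each tissue apart, which were used only as an alternative chosen after seeing the data. Here each array's negative control mean was subtracted from the intensity, and the 10 arrays were normalized together by a vsn model written in Python 3.11.15 with numpy 2.4.6 (least trimmed squares quantile 0.9), then tested with limma 3.58.1 in R 4.3.3, rat as a fixed block, with Benjamini-Hochberg adjustment over all 22226 probes. The fit and the vsn code were tested on simulated data, with far fewer changed probes than were called here. These simulations do not test the joint normalization of tissues that differ this widely. The number of arrays limits the precision.

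Tissues were paired because the labels give the same rat to both arrays of a pair. The deviations of same-rat arrays from their tissue means correlated at 0.245, -0.039, 0.077, -0.257 and 0.167. Those of different rats ran from -0.298 to 0.311, so by this measure same-rat arrays were not more alike. The labels' protocol counts fewer BN rats than the arrays hold, and counts here follow the arrays. Symbols came from the platform table: 13650 probes had 1 symbol, 0 had several and 8576 had none. A gene with several probes was read from its brightest. Promoters were matched by symbol. Genes named were the 10 largest differences each way, up to 4 members of each of 46 lists with up to 3 against its direction, all related pairs, the 5 brightest of each tissue, the 5 least different of the 200 brightest, and the 5 with the strongest rat effect or spread, with others named beside them for their role after their values were seen. The rat comparison, lists and pairs were chosen with earlier results of these data known, and of 1044 listed symbols 174 had no probe. Alternatives changed the block, the normalization, the variance model, the detection filter and the rats included.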

Additional observations from a re-analysis of the deposited data

Results flagged for a closer look

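The named genes gave 403 groups of 5 arrays, each of 1 gene in 1 tissue, and not every gene was tested in both tissues. In 42 groups the gap of the highest or lowest array to the next took over 0.71 of the group's range. Some of the 42 were detected on 1 array only, such as Apoc1, Fgg and Cd52 in adipose tissue. Chance gives such a gap in about 1 in 20 groups. The named genes include some chosen for a strong rat effect or a wide spread, so the count cannot be set against that share. Rat 1 was the array apart in 27 of the 42. Levels are log2 signals.

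In the liver of rat 1 the highest values were those of Alox15 (13.59), Ahsp (11.12), Lcn2 (13.89), Pcolce (10.35), S100a8 (9.61), Slc4a1 (7.28) and Scd (7.71). Smaller gaps in the same sample were those of Fn1 (14.82), G6pc1 (14.38), Tfr2 (12.40), C1qb (11.82), Fdps (11.31), Fads1 (10.88), Oit3 (10.61) and Cpb1 (8.08). It was lowest for Hamp (7.58), Lox (7.21), Lipc (12.36), Dpp4 (7.91) and Actb (12.79). The adipose tissue of rat 1 was highest for Alox15 (13.16), Ahsp (10.63), Hba-a3 (13.02), Cd52 (7.58), Vwf (12.92), Fgg (6.4) and Apoc1 (5.94).

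The adipose tissue of rat 2 was lowest for the muscle genes Ckm (3.87), Actn3 (2.19) and Myl11 (1.80), and for Fn1 (11.26) and Gbp2 (8.25). In rat 5 adipose tissue was highest for Blvra (10.81), Cela1 (6.9), Gapdh (11.27) and Sdhd (12.22), and liver was highest for Fos (6.05) and Mgst1 (15.69) and lowest for Igfbp2 (9.68) and RT1-Da (10.69). The liver of rat 4 was lowest for Cyp3a2 (14.02) and Nsdhl (11.02).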

How the results depend on the processing

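Of 276 named genes, 217 kept direction and side of the threshold under all alternatives and 59 did not. Of 138 gene list values (counts in each direction and medians of 46 lists), 52 moved with normexp, 52 with the deposited values, 42 with quantile normalization of the vsn values, 38 with the detection filter and 7 to 18 on leaving out a rat. Leaving out each rat in turn gave 7190 to 7859 called probes, and none of the calls shared with the full set changed sign. Without the replicate block for the rat 9197 probes were called (4831 in liver, 4366 in adipose tissue), and with rat as a random block 9224. The split of calls depended on the normalization. Normexp with quantile normalization gave 3913 in liver and 5593 in adipose tissue (41.2% liver, against 53.1%), with 1251 over 4-fold in liver, and quantile normalization of the vsn values gave 3954 and 5367 (42.4%). The median difference of all probes was -0.03 with normexp, -0.15 with quantile normalization of the vsn values and -0.38 with median centring, which gave 49.1% liver. Of the calls shared with normexp, 11 had the opposite sign. The deposited values, an alternative chosen after seeing the data, gave 5736 and 4503, with 769 over 4-fold in adipose tissue. A rat effect was called for 7 probes with normexp, 22 with median centring, 9 with stronger trimming in vsn, 1 with a detection filter, 39 with trended robust variance and 8 with the deposited values. Differences that changed sign were Atp5mc2 (-0.850), Atp5mg (-0.842), Cox8a (-0.262) and Fth1 (-0.226) with normexp, Atp5mc2 (-0.827), Atp5mg (-0.822) and Cox8a (-0.263) with quantile normalization of vsn values, Cd52 (-0.149), Cdh16 (-0.380), Flt1 (-0.340), Gzmb (-0.380), Hand2 (-0.283) and Ms4a1 (-0.107) with median centring, and Atp6v1g1 (0.395) with the deposited values. The cause was not tested. Slide as a block was not run, since each array lay on its own slide. Signals near background and in the top band limit the folds.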
